A study of Mus musculus with 9 samples.

Results

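The smooth muscle contractile genes that mark myoepithelial cells were followed across 9 RNA-seq libraries of mouse epithelial cell lines. The 10 genes, *Acta2*, *Actg2*, *Tagln*, *Cnn1*, *Smtn*, *Tpm1*, *Tpm2*, *Myh11*, *Myl9* and *Mylk*, were picked by name for their known place in the contractile apparatus, and each was found as 1 of the 23366 gene entries of the deposited count tables. mSGc, a spontaneously immortalized epithelial line from the submandibular glands of C57BL/6 mice 12 weeks of age, gave 6 libraries, 1 from each culture state. Passages P2, P4, P10 and P25 were grown in serum-free medium (SFM, with EGF, FGF, N2 supplement, insulin and dexamethasone), and P10 and P25 were also grown in serum-containing medium (SCM, with serum, retinoic acid, EGF, triiodothyronine and hydrocortisone). The labels name these media Progenitor and Differentiating, which were read as SFM and SCM because the line was established and kept in SFM. IMOK, spontaneously immortalised oral keratinocytes from C57BL/6 mice 12 weeks of age, were grown in their own medium, carry the label of early passage, and gave 3 libraries numbered as replicates. Cell line, medium and experiment cannot be told apart between mSGc and IMOK. The labels do not say whether the IMOK replicates came from separate cultures, so p-values measure only the spread between these libraries, which may be technical.

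Myoepithelial cells are basal epithelial cells that wrap the secretory end pieces of the salivary gland and squeeze saliva into the ducts. They keep the keratins of a basal cell and add the contractile proteins of smooth muscle, in which a calcium-activated kinase phosphorylates the myosin light chain and the myosin then pulls on actin filaments. Many genes of this apparatus are switched on by serum response factor (SRF) bound to CArG boxes, with myocardin or the actin-sensing myocardin-related factors as partners, and they are also induced by TGF-beta and by mechanical tension in fibroblasts and other cultured cells. None of the 10 genes is therefore made by myoepithelial cells alone.

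Depth ranged from 6237884 to 18444963 counted reads per library, so that 3 counts stood for 0.163 to 0.481 CPM (counts scaled to the same library total). Levels are given in TPM, a scale computed from the deposited counts and gene lengths that has the same total in every library and lets genes be compared per length. Ratios between single libraries carry exact 95% intervals that cover counting error only. 2 libraries stood apart in the genes described here, P2 among the mSGc libraries and replicate 1 among the IMOK libraries, and the fits of the contractile genes are given with and without them. *Krt14* and *Krt5*, keratins of basal epithelium, were between 2559 and 9386 TPM in all 9 libraries, and *Trp63* was between 27.6 and 148 TPM. Of 8 mural cell markers only *Notch3* reached 1 TPM in any mSGc library, the sum of 5 endothelial markers was at most 0.945 TPM in any library, and *Myod1*, which defines skeletal muscle, had 0 counts in all 9. As these are bulk libraries, fewer cells with contractile transcripts and less of each transcript per cell cannot be told apart.

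Promoter windows of 250 bases before the transcript start were found for 7 of the 10 genes (*Acta2*, *Cnn1*, *Myl9*, *Mylk*, *Tpm1*, *Tpm2* and *Smtn*) in RefSeq (GRCm38.p6), and each window matched the NCBIM37 (mm9) chromosome exactly and at 1 place. The windows of *Acta2*, *Myl9* and *Cnn1* are shown because, of the genes with a window, these 3 had the lowest fitted change per doubling of passage number together with the largest drop from P2 to P10 in SFM. The *Acta2* window lies at chr19:34329864-34330113 (minus strand), the *Myl9* window at chr2:156600950-156601199 (plus strand) and the *Cnn1* window at chr9:21903447-21903696 (plus strand). Capitals mark matches to a CArG box, searched as CC, 6 letters of A or T, and GG, with 1 mismatch allowed in the 6 middle letters and none in the outer ones, and to CATTCC, the core of the M-CAT element, which reads GGAATG on the other strand.
Acta2: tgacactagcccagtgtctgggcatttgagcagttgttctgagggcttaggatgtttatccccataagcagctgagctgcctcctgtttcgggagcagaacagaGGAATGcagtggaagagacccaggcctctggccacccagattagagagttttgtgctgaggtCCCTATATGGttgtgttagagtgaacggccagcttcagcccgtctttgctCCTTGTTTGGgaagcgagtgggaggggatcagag
Myl9: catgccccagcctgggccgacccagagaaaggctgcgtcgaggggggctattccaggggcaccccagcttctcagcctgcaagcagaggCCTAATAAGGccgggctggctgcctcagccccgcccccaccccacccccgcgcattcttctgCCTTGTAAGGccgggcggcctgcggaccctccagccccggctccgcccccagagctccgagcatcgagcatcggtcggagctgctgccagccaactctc
Cnn1: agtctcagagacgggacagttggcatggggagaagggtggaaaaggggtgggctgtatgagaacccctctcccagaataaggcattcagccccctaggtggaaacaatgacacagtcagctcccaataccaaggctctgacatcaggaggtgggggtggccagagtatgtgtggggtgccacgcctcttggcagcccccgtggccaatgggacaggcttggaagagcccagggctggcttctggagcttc
In *Acta2*, 2 CArG boxes with 1 mismatch each lay 84 to 75 and 34 to 25 bases before the start, and CATTCC lay on the other strand at 146 to 141. In *Myl9*, an exact CArG box lay 161 to 152 bases before the start and a second, with 1 mismatch, at 99 to 90. The *Cnn1* and *Tpm2* windows held neither motif, and those of *Mylk*, *Tpm1* and *Smtn* held 1 CATTCC each and no match to the CArG box as searched. Among 32536 promoter windows of the same length, searched on both strands, 1.48% held an exact CArG box, 8.59% held one with up to 1 mismatch in the middle letters and 12.57% held CATTCC. The matches are letters in a window and no binding was measured.

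Actin is the filament on which smooth muscle myosin pulls, and the genome holds a smooth muscle form in arterial type (*Acta2*) and in visceral type (*Actg2*). *Acta2* (mm9 chromosome 19, 34314826 to 34329863) measured 544 TPM in P2, 106 in P4, 7.86 in P10 and 48.0 in P25 in SFM, 73.0 in P10 and 5.08 in P25 in SCM, and 879.8, 7.08 and 13.8 in IMOK replicates 1, 2 and 3. Its highest level was thus in an IMOK library and the next in P2, and the remaining libraries of both lines overlapped between 5.08 and 106 TPM. *Actg2* (chromosome 6, 83462903 to 83486245) was low throughout, with 3.30 TPM in P2, 1.02 in P4, 0.179 in P25 in SFM, 2.41 in IMOK replicate 1 and 0.0949 in replicate 3, and it had 0 counts in the other 4 libraries. Again P2 and IMOK replicate 1 were the highest libraries of their lines.

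Transgelin, calponin and smoothelin bind actin filaments and are widely used as markers of differentiated smooth muscle. *Tagln* (chromosome 9, 45737711 to 45744141) measured 199 TPM in P2, 16.9 in P4, between 2.37 and 3.39 in the 4 libraries of P10 and P25, and 69.3, 0.731 and 0.551 in IMOK replicates 1, 2 and 3. *Cnn1* (chromosome 9, 21903697 to 21913665) measured 21.2 TPM in P2 and 1.51 in P4, had 0 counts in all 4 libraries of P10 and P25, and stood at 0.945 TPM in IMOK replicate 1, 0 in replicate 2 and 0.188 in replicate 3. Both genes were thus highest in P2, much lower in P4 and lower again from P10. In IMOK both were highest in replicate 1, though *Cnn1* reached only 0.945 TPM there. *Smtn* (chromosome 11, 3417525 to 3439295) had another profile, with 87.1 TPM in P2, 83.0 in P4, 84.4 in P10 and 119 in P25 in SFM, 133 and 128 in P10 and P25 in SCM, and 87.6, 42.7 and 34.6 in the IMOK replicates. Its mSGc levels lay within a narrow range and the P2 library was not the highest.

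Tropomyosins lie along the actin filament and gate its access to myosin, and *Tpm1* and *Tpm2* also give non-muscle forms from the same gene, which gene counts do not separate. *Tpm1* (chromosome 9, 66870400 to 66897020) was the most abundant of the 10 genes in all libraries except IMOK replicate 1, with 1441 TPM in P2, 885 in P4, 224 in P10 and 469 in P25 in SFM, and 462 and 445 in P10 and P25 in SCM. In IMOK it measured 379, 255 and 328 TPM in replicates 1, 2 and 3, inside the mSGc range. *Tpm2* (chromosome 4, 43527584 to 43536260) measured 450.2 TPM in P2, 330.1 in P4, 151 in P10 and 380 in P25 in SFM, and 215 and 387 in P10 and P25 in SCM. All of these lay above the 3 IMOK libraries, at 65.9, 125 and 127 TPM, and *Tpm2* was the only gene of the 10 whose levels did not overlap between the lines, where 22.3% of 12885 tested genes did not.

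Of the genes on the motor side, *Myh11* and *Mylk* were at most 11.0 TPM in any library and *Myl9* reached 107. *Myh11* (chromosome 16, 14194620 to 14291501), the smooth muscle myosin heavy chain and the strictest of these markers, had 116 counts in P2 (3.30 TPM), 12 in P4, 5 in P10 in SFM, 0 in the other 3 mSGc libraries and 3 in each IMOK library. *Myl9* (chromosome 2, 156601200 to 156607393), the regulatory light chain that the kinase phosphorylates, measured 107 TPM in P2, 19.1 in P4, 1.41 in both P10 and P25 in SFM, 5.84 and 0.588 in P10 and P25 in SCM, and 25.7, 0.107 and 0.461 in the IMOK replicates. *Mylk* (chromosome 16, 34785036 to 35002520), the kinase itself, had its higher levels in IMOK, with 11.0, 2.35 and 0.863 TPM in IMOK replicates 1, 2 and 3 against 0.920 in P2 and 0.0816 to 0.385 in the other 5 mSGc libraries. P2 overlapped with IMOK replicate 3, and the other 5 lay under all 3 IMOK libraries.

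**Figure D1:**
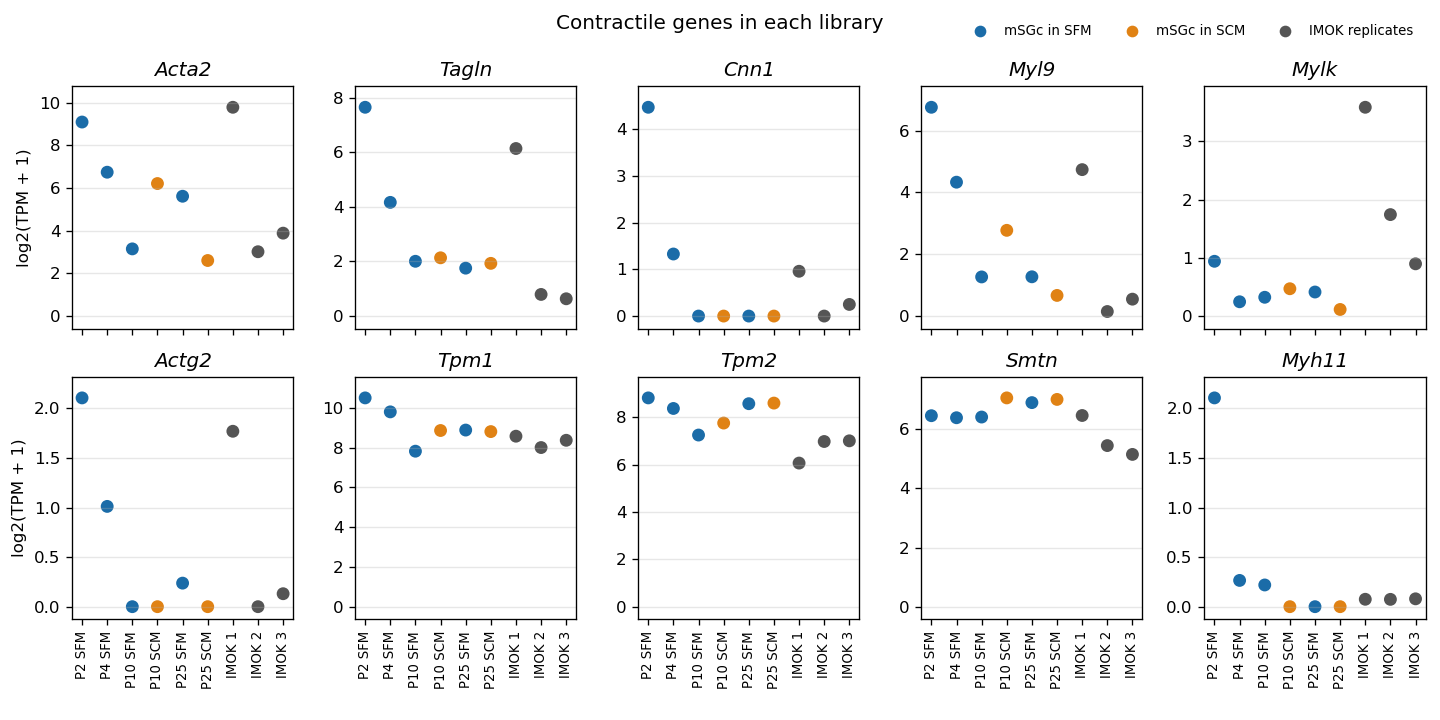
Level of each contractile gene in each of the 9 libraries, as log2(TPM + 1) on the vertical axis, with 1 panel a gene and its own scale. Blue points are mSGc in SFM, orange points mSGc in SCM and grey points the IMOK replicates. P2 is the highest mSGc library for 9 of the 10 genes (23.2% of tested genes), and IMOK replicate 1 stands above replicates 2 and 3 for most of them.

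*Acta2*, *Tagln* and *Myl9* made up at most 15.6%, 12.8% and 7.14% of their gene families in any library, and *Tpm1* up to 33.4% of its own. These shares were chosen for description after the values had been seen, and they do not depend on the scaling of a library. *Acta2* made up 6.32% of the summed TPM of 6 actin genes in P2, 1.23% in P4, 0.394% in P10 and 0.906% in P25 in SFM, 1.59% in P10 and 0.133% in P25 in SCM, and 15.6%, 0.244% and 0.346% in IMOK replicates 1, 2 and 3. Cytoplasmic actin, *Actb* and *Actg1*, supplied nearly all the rest. *Tagln* made up 12.8% of the transgelins in P2, 1.41% in P4 and 6.40% in IMOK replicate 1, and under 1% in each of the other libraries. *Myl9* made up 7.14% of the regulatory light chains in P2 and 2.75% in IMOK replicate 1. For *Tpm1* the share of the tropomyosins was 33.4% in P2 and 24.6% in IMOK replicate 1, against 13.9% to 20.8% elsewhere, so its profile by share was flatter than by level.

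**Figure D2:**
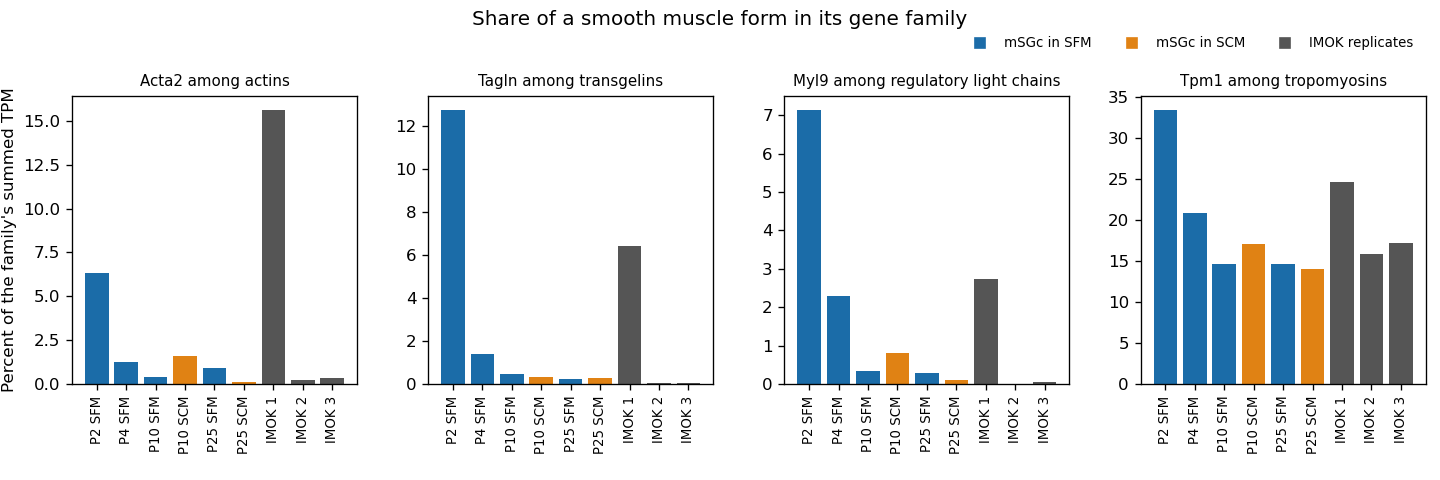
Percent of a gene family's summed TPM that came from *Acta2*, *Tagln*, *Myl9* and *Tpm1* in each library, with vertical axes that start at 0 and differ in range. Bars are single libraries, blue for mSGc in SFM, orange for mSGc in SCM and grey for IMOK. P2 and IMOK replicate 1 hold the highest shares in all 4 panels.

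Reads from these families could be shared where the transcripts are alike. In annotated transcripts of NCBIM37 the longest stretch identical between *Acta2* and another actin was 56 bases, with *Actg1*, and 1.2% of the 36-base windows of *Acta2* occurred in *Actg1*. *Myh11* shared stretches of 65 bases with *Myh9* and with *Myh10*, and 0.81% of its 36-base windows with *Myh9*. The 3 to 5 counts of *Myh11* in several libraries are therefore uncertain. *Acta2* had 41 counts in P25 in SCM, 93 in P10 in SFM, and 157 and 284 in IMOK replicates 2 and 3. *Actg1* had 14354, 11538, 22690 and 31398 counts in the same libraries. Whether shared reads make up part of these low *Acta2* counts was not tested, and ratios of *Acta2* against these libraries carry that limit.

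Over passage in SFM most of the contractile genes were lower in later libraries than in P2. From P2 to P4, 7 of the 10 genes were at least 2-fold lower (*Acta2*, *Tagln*, *Cnn1*, *Myl9*, *Mylk*, *Actg2* and *Myh11*), where 11.3% of the 12451 genes tested within mSGc were. From P4 to P10 in SFM, 7 of 10 were at least 2-fold lower (*Acta2*, *Tagln*, *Cnn1*, *Myl9*, *Actg2*, *Tpm1* and *Tpm2*) against 8.73% of genes. From P2 to P10 in SFM, 9 of 10 were at least 2-fold lower against 12.3% of genes, and from P2 to P25 in SFM 8 of 10 against 19.8%. *Actg2* and *Myh11* did not pass the filter on low counts behind these percentages. No gene of the 10 was 2-fold higher at any of these steps. With 1 library a passage these are differences between libraries, with no replicate check.

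*Acta2* was 69.2-fold lower in P10 than in P2 in SFM (interval 56.4 to 85.9), *Tagln* was 66.1-fold lower (43.5 to 106) and *Myl9* was 76.1-fold lower (36.7 to 190). *Cnn1*, with 223 counts in P2 and 0 in P10, was at least 64.6-fold lower when 3 counts are put in place of 0. The tropomyosins changed less, *Tpm1* by 6.43-fold (6.20 to 6.67 in the same direction) and *Tpm2* by 2.98-fold (2.81 to 3.16), and *Smtn* differed by 1.03-fold (0.959 to 1.11). The drop was split unevenly over time. *Tagln* was 11.8-fold and *Cnn1* 14.01-fold lower already in P4, whereas *Acta2* was 5.14-fold lower in P4 and a further 13.5-fold lower in P10. *Tpm1* was 1.63-fold lower in P4 and a further 3.95-fold lower in P10.

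P2 was the highest of the 6 mSGc libraries in TPM for 9 of the 10 genes, which held for 23.2% of tested genes. On CPM scaled by TMM factors *Tpm2* was 1.05-fold higher in P25 in SFM than in P2. The summed level of 10 fibroblast markers was 432 TPM in P2 and 14.4 to 255 TPM in the other mSGc libraries, *Postn* alone giving 394 TPM in P2. Of these 10 markers, 8 were at least 2-fold lower in P25 than in P2 in SFM, as were 19.8% of tested genes. *Pdgfra*, *Dcn* and *Thy1*, counted in the 8, did not pass the filter behind that share. The first 2 had only 9 counts each in P2. *Dcn*, *Col3a1* and *Fbln1* were higher in another mSGc library than in P2, at up to 3.79, 2.29 and 12.3 TPM against 0.816, 1.02 and 7.99. *Thy1*, a fibroblast surface marker, was at 3.92 TPM in P2 and at 0 counts in the other 5 mSGc libraries. *Col1a1* and *Col1a2* were at 6.68 and 9.88 TPM in P2, and at most 0.555 and 0.619 in those 5. *Pdgfra* was low in all, at 0.252 TPM in P2 and at most 0.0968 in the others, and *Lum* had 0 counts in P2. The summed level of 8 mural markers was 25.1 TPM in P2 against 17.4 to 65.4 TPM in the others, nearly all from *Notch3*, which was at 23.2 TPM in P2 and highest in P10 in SCM, and *Rgs5*, which defines pericytes, was at 0.731 TPM in P2 and at most 0.0616 in the others. The part of these cells in the result was not tested.

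The decline was tested over all 6 mSGc libraries with edgeR's quasi-likelihood test, fitting log2 of the passage number and medium together. Of the 8 contractile genes that passed the filter 2 were called at a Benjamini-Hochberg adjusted p under 0.05, both lower, where 0.442% of 12451 genes were called lower and 0.49% in either direction. *Cnn1* fell by 3.72 on the log2 scale per doubling of passage number (SE 0.38, adjusted p = 0.0382) and *Myl9* by 1.78 (SE 0.26, adjusted p = 0.0471). *Cnn1* passed the filter only through P2 and P4, the libraries in which it was high, and its fitted change depends on the prior count. *Tagln* was at -1.63 (SE 0.31, adjusted p = 0.0818) and *Acta2* at -1.02 (SE 0.37, adjusted p = 0.302), with *Mylk* and *Tpm1* between -0.40 and -0.36, *Tpm2* at 0.02 and *Smtn* at 0.16. The median over the 8 genes was -0.71 and over all tested genes it was 0.00. *Cnn1* counts in the -0.71 although it entered only through its high libraries, so this median leans to lower values.

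The calls were not kept in every fit that left out 1 library, and in some of these fits few or no genes were called at all. Without P2 no contractile gene was called, nor was any of the 12359 genes tested by edgeR, a share of 0.0%, although 2 of 7 contractile genes and 697 genes in all had an unadjusted p under 0.05. *Cnn1* did not pass the filter without P2 and was not tested. A fit that calls no gene cannot show whether the calls of these genes rest on P2. In that fit *Myl9* stood at -1.53 (SE 0.41, adjusted p = 0.532), *Tagln* at -0.90 (SE 0.33) and *Acta2* at -0.68 (SE 0.54). The median over the 7, without *Cnn1*, was -0.25, which is not like for like with the -0.71 over 8 genes. Without P4, or without P25 in SFM, no contractile gene was called either, where 2 of 12223 genes (0.0164%) and 0 of 12280 (0.0%) were called and 1545 and 957 genes had an unadjusted p under 0.05. DESeq2 called *Myl9* and *Tagln* and not *Cnn1*, where it called 4.65% of genes lower, and the 4 SFM libraries alone gave *Cnn1* (-3.76, SE 0.35, adjusted p = 0.0272), where 0.236% of genes were called lower. Restricted to P10 and P25, with medium as a block, 1 gene was called, and in the opposite direction: *Tpm2* rose by 1.26 on the log2 scale from P10 to P25 (SE 0.24, adjusted p = 0.0296), where 3.22% of genes were called higher.

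From P10 to P25 the genes no longer moved together, and *Acta2* moved in opposite directions in the 2 media. This comparison was chosen after the values had been seen and rests on 1 library a state. In SFM *Acta2* was 6.10-fold higher in P25 than in P10 (interval 4.93 to 7.63), and in SCM it was 14.4-fold lower (10.5 to 20.1). The pattern, at least 2-fold higher in SFM and at least 2-fold lower in SCM, was found for *Acta2* alone of the 10 and for 0.514% of tested genes. *Tpm1* and *Tpm2* were 2.09-fold and 2.51-fold higher in P25 in SFM, so that 3 of the 10 genes were at least 2-fold higher at this step, as were 6.79% of genes. In SCM *Tpm1* was 0.963 of its P10 level and *Tpm2* was 1.80-fold higher. *Tagln* differed by less than its counting error in both media, with ratios of P25 to P10 of 0.787 (0.443 to 1.42) in SFM and 0.830 (0.411 to 1.59) in SCM. *Myl9* did not differ in SFM beyond counting error (ratio 1.01, 0.373 to 2.98) and in SCM went from 40 counts to 2, a ratio of 0.101 (0.0118 to 0.389).

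The medium was compared over the same 6 libraries in the same model. None of the 8 contractile genes that passed the filter was called by edgeR, DESeq2 or limma voom, none had an unadjusted p under 0.05 in edgeR, and 0.0241% of all tested genes were called by edgeR and 2.18% by DESeq2. The fitted log2 difference of SCM from SFM was -0.84 for *Acta2* (SE 1.08), -0.44 for *Tagln* (SE 1.02), 0.02 for *Myl9* (SE 0.63) and 0.17 for *Smtn* (SE 0.24). The standard errors were as large as the differences or larger except for *Cnn1* (-1.75, SE 1.58), for which both SCM libraries were at 0 counts. Within P10 *Acta2* was 9.29-fold higher in SCM than in SFM (7.51 to 11.6), and within P25 it was 9.45-fold lower (6.92 to 13.2), so its 2 within-passage differences had opposite signs.

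IMOK replicate 1 stood above the other replicates in most contractile genes. It was at least 2-fold above both other replicates for 7 of the 10 genes (*Acta2*, *Tagln*, *Cnn1*, *Myl9*, *Mylk*, *Actg2* and *Smtn*), where 15.4% of 12885 tested genes were. It was at least 10-fold above both for *Acta2*, *Tagln* and *Myl9*, and the share of all genes past 10-fold was not counted. On TMM-scaled CPM *Smtn* was 1.85-fold above replicate 2, which left 6 genes. *Cnn1* and *Actg2* passed the filter behind the 15.4% only through P2, P4 and replicate 1 itself, and *Myh11* did not pass it. The count of 7 and that share are therefore not like for like. *Acta2* was 124-fold higher in replicate 1 than in replicate 2 (106 to 146) and 63.9-fold higher than in replicate 3 (56.8 to 72.1). *Tagln* was 94.8-fold (51.3 to 198) and 126-fold (60.9 to 314) higher, and *Myl9* was 240-fold higher than the single count of replicate 2 (42.6 to 9511) and 55.7-fold higher than replicate 3 (21.5 to 206). These 3 genes were at or under 13.8 TPM in both other replicates.

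*Mylk* was 4.69-fold and 12.8-fold higher in replicate 1, and it was the only gene of the 10 that differed at least 2-fold between replicates 2 and 3, by 2.72-fold (1.99 to 3.78), higher in replicate 2 as were 4.29% of genes. *Smtn* was 2.05-fold and 2.53-fold higher in replicate 1. *Tpm2* ran the other way, at 0.528 and 0.518 of its level in replicates 2 and 3 (0.477 and 0.447 on TMM-scaled CPM), and *Tpm1* was within 1.49-fold. *Myh11* had 3 counts in each replicate, so that no difference in the heavy chain was detectable at this depth.

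Other cytoskeletal genes stood high in the same replicate. Of 15 further smooth muscle and SRF-linked cytoskeletal genes, 7 were at least 2-fold above both other replicates, where 15.4% of tested genes were. *Des*, 1 of the 7, did not pass the filter behind that share. The sum of the 15 was 2483 TPM against 1194 and 1386. Among the 7, *Tgfb1i1*, a focal adhesion partner of TGF-beta signalling singled out after its values were seen, stood at 53.7 TPM against 0.345 and 0.247. None of 6 SRF and myocardin family factors was at least 2-fold above both others, *Srf* measuring 72.6, 30.1 and 40.2 TPM. *Myocd*, the smooth muscle partner of SRF, was at or near 0 in all libraries, with 0 counts in 7 of 9. Of 16 family relatives, 14 of them non-muscle and 2 of them the striated muscle actins *Acta1* and *Actc1*, only *Acta1* and *Myh9* stood out in replicate 1, of 12 genes regulating the light chain only *Ppp1r14a*, and of 10 TGF-beta genes *Tgfb1*, *Tgfb2*, *Tgfb3* and *Ctgf*. None of 8 other myoepithelial and basal markers did, with *Krt14* at 3262, 3154 and 3319 TPM.

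Fibroblast markers were summed at 91.5 TPM in IMOK replicate 1 and at 41.1 and 30.6 TPM in replicates 2 and 3. *Fbln1* gave much of each sum, with 35.6, 36.8 and 25.4 TPM in replicates 1, 2 and 3. In replicate 1, 4 of 10 (*Col1a1*, *Col1a2*, *Postn* and *Mmp2*) were at least 2-fold above both others, where 15.4% of tested genes were. *Postn* measured 31.3 TPM there against 0.211 and 0.644, *Mmp2* 18.2 against 2.82 and 3.20, and *Col1a1* 5.2 against 0.395 and 0.345. *Thy1*, *Lum* and *Dcn*, also on this list, had 0 counts in replicate 1. Mural markers were summed at 15.3 TPM in replicate 1, against 3.88 and 0.983, of which *Notch3* gave 12.97, 3.56 and 0.675 TPM, and *Rgs5* was at 0.0649 TPM. Their part in the difference between replicates was not tested.

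Between the lines, all 6 mSGc libraries were compared with the 3 IMOK libraries. These 6 are passages and media of a single line and not replicates, so the spread behind the p-values holds passage and medium effects. Of the 9 contractile genes that passed the filter (*Myh11* did not) 3 were called by edgeR at an adjusted p under 0.05, where 14.9% of 12885 genes were called. *Tpm2* was higher in mSGc by 1.80 on the log2 scale (SE 0.42, adjusted p = 0.0183) and *Smtn* by 1.20 (SE 0.30, adjusted p = 0.0235), while *Mylk* was lower by a log2 change of -3.44 (SE 0.75, adjusted p = 0.0150). *Tpm2* and *Smtn* are also on a gene list that the study drew up partly from these libraries, so their direction is not independent evidence. The genes that varied most within each line gave wide errors, *Acta2* at -0.93 (SE 1.49), *Tagln* at 0.93 (SE 1.77), *Myl9* at 1.62 (SE 1.78), *Actg2* at 0.14 (SE 1.53) and *Cnn1* at 3.48 (SE 2.37, adjusted p = 0.357), and *Tpm1* was at 1.24 (SE 0.51, adjusted p = 0.128).

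Among the edgeR fits that left out 1 library, the direction of *Acta2* turned only without IMOK replicate 1, and limma voom gave 0.37 with all 9 libraries. Without replicate 1 *Acta2* was higher in mSGc by 3.73 on the log2 scale (SE 1.75, adjusted p = 0.178), *Tagln* by 5.93 (SE 2.49) and *Myl9* by 6.31 (SE 2.52), none of them past the threshold. The median over the 10 genes then tested was 3.60, and over the 9 genes tested with all libraries it was 1.20. These medians cover different genes and are not like for like. *Myh11* was tested only without replicate 1, where it, *Cnn1* and *Actg2* passed the filter through P2 and P4 alone, the libraries in which they were high. In that fit *Mylk* was at -2.01 (SE 0.69, adjusted p = 0.0813) and was no longer called, and *Smtn* (1.62, SE 0.27) and *Tpm2* (1.51, SE 0.44) were called, as were 14.7% of genes. Without P2, *Smtn*, *Tpm2* and *Mylk* were called, as were 13.7% of genes, and *Tagln* and *Myl9* were at -1.65 (SE 1.32) and -0.24 (SE 1.47). The median over 7 genes was then -0.24, with *Cnn1*, *Actg2* and *Myh11* not tested. Without IMOK replicate 2 only *Mylk* was called, as were 5.61% of 13156 genes, and without replicate 3 *Mylk* and *Tpm2* were, as were 7.14% of 13207.

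The 2 P10 libraries against the 3 IMOK libraries gave none of 7 contractile genes called by edgeR or limma voom, where 4.2% of 13018 genes were called by edgeR. *Smtn* (1.18, SE 0.37, adjusted p = 0.128) and *Mylk* (-3.62, SE 1.15, adjusted p = 0.130) had an unadjusted p under 0.05, and DESeq2 called both, where it called 17.1% of genes. Without IMOK replicate 1, 3 genes were called higher in P10 mSGc, *Tagln* (2.40, SE 0.50, adjusted p = 0.0265), *Myl9* (3.70, SE 1.00, adjusted p = 0.0471) and *Smtn* (1.58, SE 0.23, adjusted p = 0.0130), where 27.1% of 12602 genes were called in either direction. With replicate 1 included, *Tagln* and *Myl9* were at -2.56 and -0.98 in the same comparison.

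**Figure D3:**
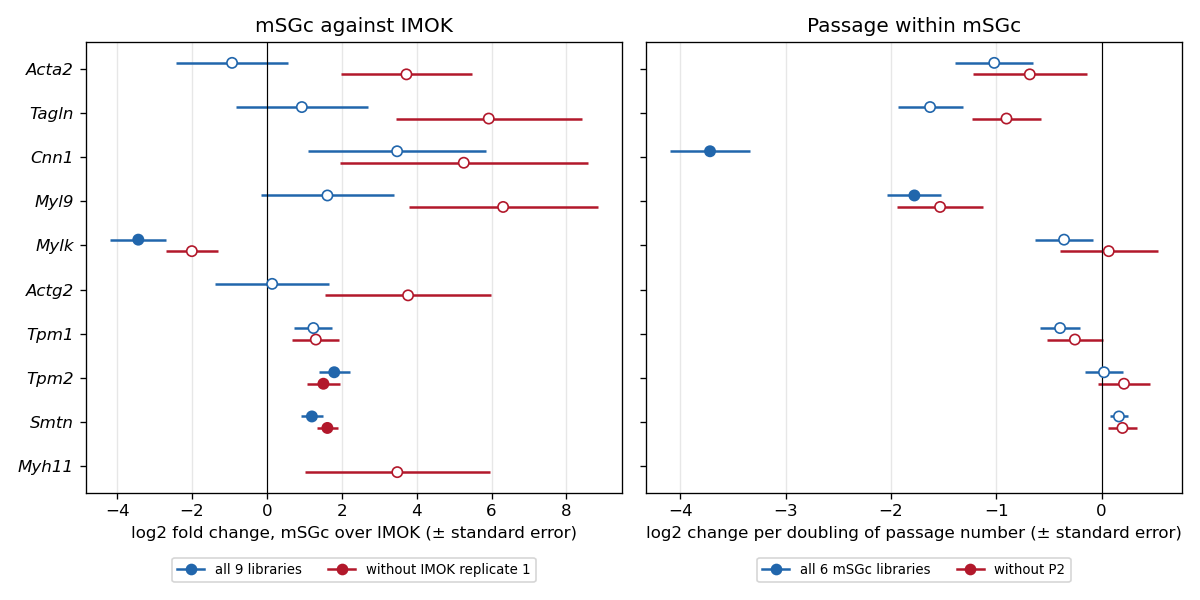
Left, fitted log2 fold change of mSGc over IMOK for each contractile gene with all 9 libraries (blue) and without IMOK replicate 1 (red). Right, fitted log2 change per doubling of passage number within mSGc with all 6 libraries (blue) and without P2 (red). Bars are standard errors, filled points have an adjusted p under 0.05 in edgeR and genes that did not pass the filter have no point. *Acta2* lies left of 0 with all libraries (-0.93) and right of it without IMOK replicate 1 (3.73).

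Genes around the contractile apparatus were read from the same fits between the lines. Of all tested genes 14.9% were called there, 14.7% without IMOK replicate 1 and 13.7% without P2. Among the SRF-linked cytoskeletal genes, *Csrp2*, a LIM protein of smooth muscle, was the only 1 of 14 tested to be called between the lines and was lower in mSGc (-2.61, SE 0.29, adjusted p = 0.000569), with 10.3 to 29.4 TPM in mSGc and 148 to 161 in IMOK. *Elk1*, which competes with myocardin for SRF, was lower in mSGc (-0.68, SE 0.19, adjusted p = 0.0392), the only 1 of 5 factors called. Of 14 family relatives tested, *Tpm4*, a tropomyosin of non-muscle cells, was called higher (1.29, SE 0.33, adjusted p = 0.0284), and without IMOK replicate 1 it was not (1.19, SE 0.39, adjusted p = 0.0735). Without that replicate *Csrp2* and *Elk1* were still called, and so was *Csrp1*, higher in mSGc (2.01, SE 0.44, adjusted p = 0.0186). Without P2 *Csrp2*, *Elk1* and *Tpm4* were still called, and *Myl12b*, a non-muscle light chain, was also called, lower in mSGc (-1.30, SE 0.34, adjusted p = 0.0352). The medians of these lists, -0.20, -0.20 and 0.16, lay near that of all genes, 0.00.

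Of 7 basal and myoepithelial markers tested outside the contractile set 2 were called, where 14.9% of all genes were, and both were higher in mSGc, namely *Krt14* (1.27, SE 0.33, adjusted p = 0.0297) and the P-cadherin gene *Cdh3* (1.13, SE 0.27, adjusted p = 0.0209), and the median was 1.12. *Trp63* was at -0.44 (SE 0.38, adjusted p = 0.473) and *Mme* at -0.69 (SE 1.35, adjusted p = 0.778). Without IMOK replicate 1 *Cdh3* was called (1.23, SE 0.32, adjusted p = 0.0341) and *Krt14* was not (1.21, SE 0.40, adjusted p = 0.0714), and without P2 both were called and *Cav1* as well (1.21, SE 0.34, adjusted p = 0.0443). *Oxtr*, the oxytocin receptor of mammary myoepithelium, was at most 0.0697 TPM. Of the other lists, *Notch3* was called higher in mSGc (2.76, SE 0.75, adjusted p = 0.0350) as the only mural marker that could be tested, and *Fbln1* lower (-1.71, SE 0.30, adjusted p = 0.00558) as 1 of 7 fibroblast markers. Both were also called without IMOK replicate 1, as was *Postn*, higher in mSGc (8.45, SE 2.09, adjusted p = 0.0286), and both without P2. None of 10 TGF-beta genes, and none of 10 regulators of the light chain tested, was called by edgeR, 2 and 1 of them having an unadjusted p under 0.05. The regulators with the highest mean level, *Calm2*, *Rhoa* and *Ppp1cb*, were at 797 to 1297, 260 to 394 and 151 to 379 TPM over the 9 libraries.

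Over passage, *Ctgf*, a target of TGF-beta and of mechanical tension, was the only gene of these other lists to be called, with a fall of 1.68 on the log2 scale per doubling (SE 0.21, adjusted p = 0.0382). Without P2 it stood at -1.80 (SE 0.29, adjusted p = 0.325) and was not called. It measured 1931 TPM in P2, 740 in P4, 96.3 in P10 and 37.8 in P25 in SFM, and 1157 and 78.2 in P10 and P25 in SCM. Of 14 SRF-linked cytoskeletal genes tested none was called by edgeR, 9 had an unadjusted p under 0.05 and 12 had a negative slope, with a median of -0.39, where 13.2% of all 12451 genes had an unadjusted p under 0.05. Without P2, 1 of 13 had one, where 5.64% of all genes did. Of 10 TGF-beta genes tested, *Ctgf* among them, 8 had an unadjusted p under 0.05 with all 6 libraries and 6 had one without P2. The median slope of these 10 was -0.39 with all 6 libraries, 2 of them having a positive slope, and -0.23 without P2. The endothelial and skeletal muscle lists had at most 1 gene that could be tested in any comparison and none was called, *Acta1* of skeletal muscle standing at 10.5 TPM in P2, 8.44 in P4 and 7.69 in IMOK replicate 1 and at or under 1.82 in the other 6.

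At least 5 genes outside the contractile set followed the level of *Acta2* more closely than any of the contractile genes compared. The genes with a mean of at least 10 TPM numbered 8834, *Acta2* and the contractile genes named here counted in. Outside the 10, Pearson's r of log2(TPM + 1) with *Acta2* over the 9 libraries was highest for *Phf23* (0.948), *Vasp* (0.942), *Dlgap4* (0.938), *Ube2f* (0.921) and *Phkg2* (0.919). It was 0.913 for *Myl9*, 0.882 for *Tagln*, 0.636 for *Tpm1*, 0.257 for *Smtn* and -0.03 for *Tpm2*. *Vasp*, a protein that extends actin filaments, measured 229 TPM in P2 and 210.2 in IMOK replicate 1 and 94.8 to 161 in the other 7 libraries. Over the 6 mSGc libraries alone the leading genes were *Cdipt*, *9030624J02Rik*, *Ctla2b*, *Senp3* and *Gltpd1*, with r from 0.985 down to 0.981. These values are the top of many over few libraries that share 2 high points, and they are given as a description.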

How the data were processed

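RNA-seq was performed on 6 mSGc and 3 IMOK libraries made from total RNA with the Illumina TruSeq kit. Per the labels, the authors aligned reads to mm9 with TopHat2 2.1.1 and Bowtie2 2.2.6 and counted them on genes with featureCounts 1.5.1, and deposited raw counts per gene for each library with the gene's length. Their submitters' notes also name DESeq2 1.12.4. The gene annotation, the strand setting and the handling of reads with several matches were not given in the sources used here, and reads from overlapping or antisense genes could not be told apart.

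The 2 tables were joined on 23366 gene entries and no column was left out. Depth was 6237884 to 18444963 counts. TPM were computed from counts and lengths. Tests used edgeR 4.0.16 (R 4.3.3) with TMM factors, filterByExpr, quasi-likelihood fits over all genes and Benjamini-Hochberg adjustment at 0.05, for mSGc against IMOK (all 6, and the 2 P10 libraries), and for log2 passage number and medium within mSGc. DESeq2 1.42.0, limma 3.58.1 with voom, unscaled library sizes, no filter, a minimum of 10 counts, and leaving out each library were tried, and for passage also the untransformed number, SFM alone, and P10 and P25 alone. Scripts were tested on simulated counts. Single libraries were compared by ratios of TPM, with exact Clopper-Pearson 95% intervals, 3 counts in place of 0 and a fold of 2, and no ratio where both had at most 3 counts. All 10 genes are named. From other lists, genes past the threshold are named, or else the 3 with the highest mean TPM, and others were chosen after their values were seen. The genes and lists were chosen with earlier results of these data known.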

Additional observations from a re-analysis of the deposited data

Results flagged for a closer look

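P2 lay far from the other mSGc libraries in 7 of the 10 contractile genes. The gap between P2 and the next library, divided by the range of the 6 levels, was 0.813 for *Acta2*, 0.926 for *Tagln*, 0.929 for *Cnn1*, 0.826 for *Myl9*, 0.638 for *Mylk*, 0.692 for *Actg2* and 0.939 for *Myh11*, each above Dixon's critical value of 0.625 for 6 values. The 6 libraries are different passages and media and not replicates. Chance flags about 1 in 20 groups of replicates, whichever library stands apart. Of the 12451 genes tested within mSGc, 9.42% had such a gap for any library, and 2.88% had it with P2 as the highest library. *Actg2* and *Myh11* are not among those tested genes and *Cnn1* is there only through P2 and P4, so the 7 of 10 and the 2.88% are not like for like. For these 3 genes, with few or no counts in P10 and P25, such a gap was nearly given once P2 was high. *Tpm1*, *Tpm2* and *Smtn* had no such gap.

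*Acta2* changed in opposite directions from P10 to P25 in the 2 media, 6.1-fold higher in SFM and 14.4-fold lower in SCM, with 1 library in each state. The difference between the media was not tested.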

How the results depend on the processing

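Of mSGc against IMOK, leaving out 1 library gave 1 to 3 contractile genes called (3 with all), and other settings 2 to 4. Of the P10 comparison, DESeq2 called 2 and leaving out 1 library gave 0 to 3 (0 with all). Over passage, where 2 were called, limma voom, the untransformed passage number, SFM libraries alone and P10 and P25 alone with medium as a block each gave 1, a minimum of 10 counts gave 0, as neither *Cnn1* nor *Myl9* was then tested, and leaving out 1 library gave 0 to 3. The medium gave 0 throughout, and the cause of these moves was not tested. Directions also turned. For mSGc against IMOK, *Acta2* was at 0.37 with limma voom and from -2.28 to 3.73 on leaving out 1 library, *Tagln* from -1.65 to 5.93, *Myl9* from -0.24 to 6.31 and *Actg2* from -0.44 to 3.77, the last being -0.023 without TMM factors. That scaling moved the median of all genes to -0.10 and the calls from 848 higher and 1070 lower to 663 and 1373, and changed the direction of no other contractile gene in that comparison. For P10 the ranges were -4.85 to 1.99 for *Acta2*, -3.20 to 2.40 for *Tagln*, -2.23 to 3.70 for *Myl9* and -0.27 to 0.61 for *Tpm1*, and limma voom gave 0.056 for *Tagln* and 1.37 for *Myl9*. Over passage they were -0.88 to 0.067 for *Mylk* and -0.29 to 0.21 for *Tpm2*, which was at -0.000287 with limma voom and -0.043 in SFM alone, and *Tpm1* was at 0.68 in P10 and P25 alone. No paired analysis was possible because replicate numbers are carried by the IMOK libraries alone, although passage or medium was fitted as a block over P10 and P25. With 1 library a passage and medium, a lone library in a fit is assumed to vary like the rest, and at 3 counts, 0.163 to 0.481 CPM, losses of *Cnn1*, *Actg2* and *Myh11* after P4 could not be followed further.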
